A study of Mus musculus with 2 samples.

Results

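The genes described here are 10 genes that are used to recognise activated stellate cells and the mural cells of vessels: Acta2, Tagln, Myl9, Des, Rgs5, Pdgfrb, Pdgfra, Pdpn, Thy1 and Fap. They were taken by symbol from the 32285 genes of the deposited gene lists, and each of the 10 symbols matched a single gene. Their unique molecular identifiers (UMIs, each standing for 1 captured RNA molecule) were counted in 1 flox library and 1 library labelled PSCs-MCT1-/- of unsorted live tumor cells. In both groups KPC cells, which are murine pancreatic carcinoma cells, had been injected into the pancreas. The flox mice were MCT1 fl/fl, with parts of Slc16a1, the gene of the lactate transporter MCT1, between loxP sites. The PSCs-MCT1-/- mice carried these sites with a tamoxifen-dependent Cre recombinase under the Col1a2 promoter. This promoter is active in collagen-producing cells in general and not in pancreatic stellate cells (PSCs) alone. The study's design names tamoxifen or corn oil as the injection before implantation. Which of them the flox mice of these libraries received, whether those mice carried the Cre, and how many mice went into each library, is not given in the sources used here. Only 1 library stands for each group, so no difference below has a replicate check, and every 95% interval covers counting error only.

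PSCs rest around the acini as vitamin A-storing cells and turn into myofibroblasts in tumors, where they lay down collagen and build contractile filaments. Alpha-smooth muscle actin (Acta2), SM22 alpha (Tagln) and the regulatory myosin light chain (Myl9) belong to the contractile apparatus, which smooth muscle cells and pericytes share with myofibroblasts. None of the 10 genes is therefore exclusive to a stellate cell. Pdgfrb and Des are used for pericytes as well as for fibroblasts, and Rgs5 is used for pericytes.

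A barcode was used when it had 500 UMIs or more, between 200 and 5000 genes detected, and no more than 8% mitochondrial UMIs. This left 8739 flox barcodes and 11689 of the other library, with medians of 4069 and 3706 UMIs. Collagen cells were those in which Col1a1, Col1a2 and Col3a1 together made up at least 0.2% of UMIs and Ptprc, the gene of the leukocyte antigen CD45, had none. There were 262 in the flox library (2.998% of kept barcodes, 95% Clopper-Pearson interval 2.65 to 3.38), and the library labelled PSCs-MCT1-/- had 319 (2.73%, 2.44 to 3.04). None of the 10 genes was used to choose them. Their median depths were 4488 and 6406 UMIs, and together they held 1902990 and 2205017 UMIs. Dcn, the proteoglycan gene decorin and a fibroblast marker, was detected in 73.3% and 83.1% of them. At the lowest depths the rule is met by 1 collagen UMI, and 74 and 56 collagen cells held fewer than 5. Slc16a1 was not lower in collagen cells of the library labelled PSCs-MCT1-/-, at 36.7 CPM (UMIs of a gene per 1000000 UMIs of the class) against 25.8 in flox (ratio 1.43, 0.989 to 2.08). This rests on 81 and 49 UMIs. With its own cell groups, the paper reports lower MCT1 expression in PSCs of the PSCs-MCT1-/- mice by single-cell sequencing. It also reports less MCT1 RNA and protein in primary PSCs taken from such mice. The library is called by its label here. A UMI of Cd74, Lyz2 or a C1q gene was present in 253 and 272 collagen cells, and a keratin UMI (Krt8, Krt18 or Krt19) in 141 and 146. All 9 myeloid markers were detected in both libraries and summed to 785.6 and 540.1 CPM in collagen cells. All 10 acinar markers were detected as well, at 127.2 and 2373.7 CPM, against 345 and 18302.5 CPM in empty barcodes (10 to 100 UMIs, a measure of free RNA). Of the T/NK markers Cd2 was at 0 in flox, and of the endothelial markers Cldn5 was at 0 in the other library. The 6 stress genes, such as Hspa1a and Fos, summed to 6691 and 4436 CPM. The part of these in the differences below was not tested, except where a value without such barcodes or with free RNA subtracted is given. No barcode was a collagen cell in both libraries.

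The contractile genes were lower in collagen cells of the library labelled PSCs-MCT1-/-, and the surface genes differed little. Acta2, Tagln, Myl9, Des and Rgs5 were each at least 1.5-fold lower there, 5 of the 10 genes, against 13.2% of the 7588 genes with 50 or more UMIs in collagen cells. The same 5 were at least 2-fold lower (3.95% of all genes), and 4 of them were at least 3-fold lower (0.936%). None of the 10 genes was at least 1.5-fold higher (8.47% of all genes, with 2.86% past 2-fold and 1.05% past 3-fold). The median ratio, PSCs-MCT1-/- over flox, was 0.528 over the 10 genes and 0.944 over all 7588. With each library scaled to a median ratio of 1 the shares of all genes past 1.5-fold were 10.1% lower and 10.7% higher, and still 5 of the 10 genes were lower and none higher.

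**Figure D1:**
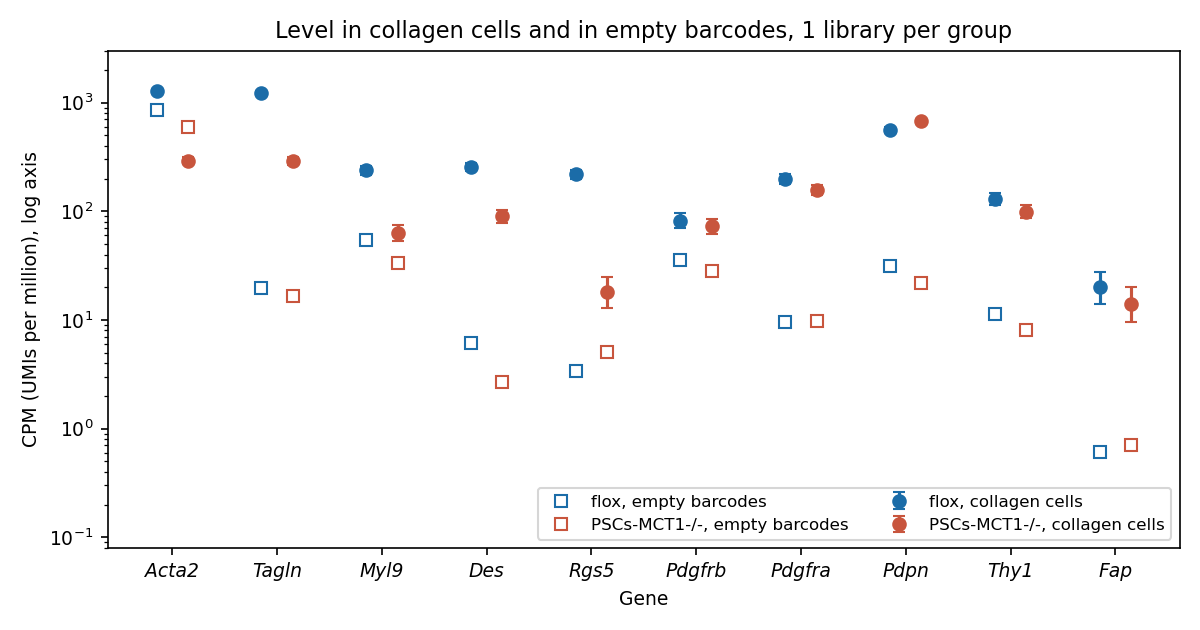
CPM of the 10 genes on a log axis, with filled circles for collagen cells (bars are 95% Poisson intervals, counting error only) and open squares for empty barcodes, in the flox library (blue) and the library labelled PSCs-MCT1-/- (red). The flox value of Acta2, Tagln, Myl9, Des and Rgs5 lies well above the other library's, while the Pdgfrb, Pdgfra, Thy1 and Fap values lie close together and Pdpn is slightly higher in the library labelled PSCs-MCT1-/- and the red circle of Acta2 falls below its own open square.

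Acta2 (ENSMUSG00000035783, GRCm38 chromosome 19, 34241090 to 34255590, minus strand) had 2433 UMIs in flox collagen cells and 644 in those of the library labelled PSCs-MCT1-/-. Its level was 1278.5 CPM (1228 to 1330) against 292 CPM (270 to 316), which is 4.38-fold lower (4.01 to 4.78). Tagln (ENSMUSG00000032085, chromosome 9, 45929619 to 45936058, minus strand), an actin-binding protein of contractile cells, had 2333 and 642 UMIs and was 4.21-fold lower (3.86 to 4.60). For Myl9 (ENSMUSG00000067818, chromosome 2, 156775420 to 156781658), whose product is phosphorylated when actomyosin contracts, the counts were 452 and 140, a 3.74-fold lower level (3.09 to 4.56). Des (ENSMUSG00000026208, chromosome 1, 75360329 to 75368579) encodes desmin, the intermediate filament of muscle, which stellate cells and pericytes also carry. It had 486 and 198 UMIs, or 255 and 89.8 CPM, and was 2.84-fold lower. The intervals of these 4 genes did not overlap between the libraries, and neither did those of Rgs5, Pdpn, Pdgfra and Thy1. The share of all genes without overlap was not computed, so this does not set the 4 genes apart. In GENCODE vM21 the Tagln and Des genes overlap others on the opposite strand (Pcsk7 and Gm48529, and Gm15179). The Pdgfra gene overlaps 1 gene on its own strand and 2 on the opposite strand (Gm42802, Gm42803 and Mir7025 together). Whether the counting used strand is not given in the sources used here.

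Genes of this group are known targets of serum response factor, which binds the CArG box, a 10-base motif with CC at its start, GG at its end and A or T in between. RefSeq start sites with sequence were given for 6 of the 10 genes (Acta2, Myl9, Des, Rgs5, Pdpn and Pdgfra). The 250 bases before each start were searched on both strands for CArG boxes with up to 1 G or C inside. Acta2 and Myl9 held 2 boxes each, and the other 4 held none. Of 32851 promoters of the same length 8.59% held such a box, and 1.47% a box with no G or C inside, which among the 6 genes was found once, in Myl9. Of the 6 searched genes Acta2, Myl9, Des and Rgs5 were at least 1.5-fold lower in the library labelled PSCs-MCT1-/-. Tagln, which was lower too, was not searched. A link between boxes and lower levels was not tested. Each of the 4 boxes is given within 30 bases, read 5′ to 3′ along the gene with the box in capitals:
Acta2, 84 to 75 bases before the start (GRCm38.p6, chr19:34255438-34255467, minus strand): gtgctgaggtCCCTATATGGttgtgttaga
Acta2, 34 to 25 bases before the start (chr19:34255388-34255417, minus strand): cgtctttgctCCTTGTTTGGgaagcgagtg
Myl9, 161 to 152 bases before the start (chr2:156775293-156775322, plus strand): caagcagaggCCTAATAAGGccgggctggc
Myl9, 99 to 90 bases before the start (chr2:156775355-156775384, plus strand): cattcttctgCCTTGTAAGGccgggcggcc
The Acta2 stretches lie inside the longer GENCODE gene model, which begins further upstream than the RefSeq start, and the Myl9 stretches lie upstream of both models. A match is a description of these letters and not of binding.

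A few cells carried most contractile UMIs. In the flox library 9 of 262 collagen cells held 50% of the Acta2 UMIs, 8 held 50% of Tagln and 6 held 50% of Des. In the library labelled PSCs-MCT1-/- the numbers were 9, 8 and 17 of 319. For Pdgfra 21 and 33 cells were needed, and for Pdpn 21 and 40. The flox cell with most Acta2 held 425 UMIs of it, 602 of Tagln, 178 of the library's 486 Des UMIs and none of Pdgfra. The same cell held 669 UMIs of Actg2, 257 of Myh11 and 210 of Cnn1, genes that mark differentiated smooth muscle. In the other library the highest Acta2 cell held 57 UMIs of it, with 52 of Tagln, 27 of Myh11 and 4 of Rgs5. Among the 10 cells with most Acta2 per library, which held 54.3% and 53.0% of its UMIs, 7 and 6 had no Pdgfra UMI, and 7 and 6 had a UMI of Actg2 or Myh11. Collagen cells with 5 or more UMIs of Actg2 and Myh11 numbered 14 (5.34%) and 4 (1.25%), and those 14 flox cells held 47.2% of Acta2 and 50.2% of Tagln. Without them Acta2 was 0.312 times the flox level and Tagln 0.337 times, against 0.228 and 0.238 with them. Myl9 was then 0.452 times the flox level and Des 0.563 times, against 0.267 and 0.352. Leaving out, for each gene, the 5 cells of each library with most of its UMIs gave 0.245 for Acta2, 0.245 for Tagln, 0.267 for Myl9 and 0.510 for Des.

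**Figure D2:**
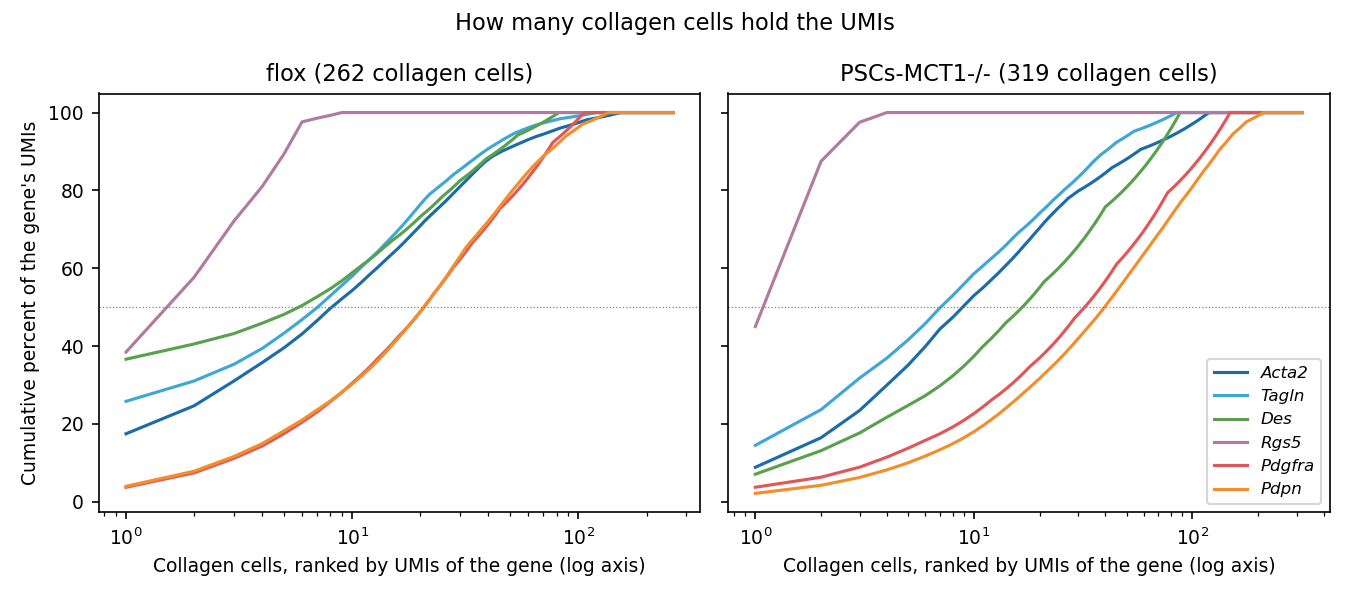
Cumulative percent of a gene's UMIs (y axis) over collagen cells ranked from the cell with most UMIs of that gene (x axis, log scale), for Acta2, Tagln, Des, Rgs5, Pdgfra and Pdpn in each library. The Rgs5 line reaches 50% at 2 cells in both libraries, Acta2 at 9 in both, and Pdgfra and Pdpn at 21 cells in flox and at 33 and 40 in the library labelled PSCs-MCT1-/-.

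The collagen share that defines the cells mattered for the size of the difference. Barcodes just below the threshold (0.15% to 0.2% collagen, 126 in flox and 123 in the other library) had 907 and 960 CPM of Acta2 and 7.56 and 97.2 CPM of Pdgfra. Those just above it (0.2% to 0.25%, 33 and 36) had 5033 and 143 CPM of Acta2 and 183 and 161 CPM of Pdgfra, and in flox they included the cell with 425 Acta2 UMIs. At 1% or more collagen UMIs, which kept 109 flox cells and 105 cells of the library labelled PSCs-MCT1-/-, Acta2 was 0.442 times, Tagln 0.472 times, Myl9 0.566 times and Des 0.452 times the flox level. Among collagen cells without a keratin UMI (121 and 173) Acta2 was 0.223 times and Tagln 0.197 times the flox level, as low as with them. Only 9 and 47 collagen cells lacked Cd74, Lyz2 and C1q UMIs, and in these few Acta2 was 0.918 times and Tagln 0.759 times the flox level.

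Rgs5, a regulator of G-protein signalling that marks pericytes (ENSMUSG00000026678, chromosome 1, 169655501 to 169695813), had the lowest ratio of the 10 genes. It had 416 UMIs in flox collagen cells and 40 in those of the library labelled PSCs-MCT1-/-, a 12.1-fold lower level. These UMIs came from 9 cells and 4 cells, and the 2 highest flox cells held 160 and 80 of them. Over all kept barcodes Rgs5 had 579 and 566 UMIs, or 9.47 and 6.95 CPM, a ratio of 0.733 (0.652 to 0.825). In flox 71.8% of them lay in collagen cells, and in the library labelled PSCs-MCT1-/- 7.07% did. There 64.8%, or 367 UMIs, lay in barcodes below the collagen threshold that held 2 or more of 8 other mural markers such as Notch3 and Cspg4. Joining those barcodes to the collagen cells gave an Rgs5 ratio of 0.647 in place of 0.0830. Under the same setting Acta2 was 0.388 times the flox level in place of 0.228, Tagln 0.266 times in place of 0.238, Myl9 0.344 times in place of 0.267 and Des 0.391 times in place of 0.352. The joined barcodes themselves held 1198 CPM of Acta2 in flox and 958 CPM in the other library. By genes of the Y chromosome, given further below, they lay near keratin cells in flox and are not called mural. This value is for the class as a whole. In the library labelled PSCs-MCT1-/- 338 of its 367 Rgs5 UMIs lay in 12 barcodes with 5 or more Rgs5 UMIs. The Rgs5 ratio was 0.530 among collagen cells with at least 1% collagen UMIs and 0.312 among those without a keratin UMI. A look at barcodes with 5 or more Rgs5 UMIs, chosen after these values were seen, gave 16 in flox and 21 in the other library. They held 93.1% and 80.4% of all Rgs5 UMIs, and only 6 and 2 of them were collagen cells, with median collagen shares of 0.137% and 0.0660%. Pdgfrb was detected in 12 and 15, Acta2 in 12 and 16, Des in 10 and 16, and Pdgfra in none. In these barcodes Acta2 was 2188 CPM in flox and 3558 CPM in the library labelled PSCs-MCT1-/-, Tagln 1140 and 1899 CPM, Des 383 and 594 CPM, and Pdgfrb 419 and 396 CPM. Acta2, Tagln and Des were thus not lower in Rgs5-rich barcodes of that library, whereas Myl9 was 902.7 and 594 CPM. Genes of the Y chromosome summed to 283 and 182 CPM in the Rgs5-rich barcodes, against 243 and 217 CPM in collagen cells. At least 2 endothelial markers were detected in 6 and 9 of these barcodes, and the part of other cells' RNA was not tested.

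Pdgfrb, the receptor for PDGF-B on pericytes and fibroblasts (ENSMUSG00000024620), had 156 and 160 UMIs in collagen cells. Its ratio was 0.885 (0.706 to 1.11), so no difference was detectable at this depth. Pdgfra, the receptor that marks fibroblasts (ENSMUSG00000029231, chromosome 5, 75152292 to 75198215), had 377 and 349 UMIs, or 198 and 158 CPM, and a ratio of 0.799 (0.689 to 0.927). Thy1 (ENSMUSG00000032011, chromosome 9, 44043384 to 44048579) encodes the surface glycoprotein CD90 of fibroblasts and T cells, and its ratio was 0.768 (0.638 to 0.926) from 246 and 219 UMIs. Fap, the protease fibroblast activation protein (ENSMUSG00000000392, chromosome 2, 62500943 to 62574075), had 38 and 31 UMIs and a ratio of 0.704 (0.424 to 1.16). Pdpn, the mucin-like glycoprotein podoplanin (ENSMUSG00000028583, chromosome 4, 143267431 to 143299564), was the only one of the 10 with a ratio above 1, at 1.22 (1.12 to 1.32) from 1058 and 1490 UMIs. The Pdpn ratio was 0.817 among the 9 and 47 cells without Cd74, Lyz2 and C1q UMIs, and the Thy1 ratio was 1.38 as a mean over cells of each cell's CPM, so neither direction held under every setting.

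Detection per cell was compared after thinning each cell to 1000 UMIs, which left out 67 flox cells and 55 of the other library. An Acta2 UMI was then found in 35.4% of flox collagen cells (28.7 to 42.5) and 14.8% (10.7 to 19.6) of those of the library labelled PSCs-MCT1-/-. Unthinned, the shares were 58.8% and 37.3%. T/NK cells, which should lack Acta2, held a UMI in 9.94% and 5.75% after thinning, at median depths of 3636.5 and 2873 UMIs. For Tagln the thinned shares were 30.3% (23.9 to 37.2) and 10.6% (7.16 to 15.0), for Myl9 12.3% and 4.55%, and for Des 16.4% and 7.96%, against at most 0.287% of T/NK cells. Pdpn was found in 25.6% (19.7 to 32.4) and 37.9% (32.0 to 44.0), against 0.864% and 0.575% of T/NK cells. Pdgfra at 17.9% and 15.5% and Pdgfrb at 9.23% and 8.33% lay within each other's intervals. Thy1 was found in 8.72% and 8.71% of collagen cells and in 28.1% and 28.5% of T/NK cells, which express it. Fap was found in 2 and 5 thinned cells and Rgs5 in 6 and 3, too few to order.

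In cells thinned to equal depth, contractile genes were detected together more often than the product of their shares, and in flox Acta2 and Tagln were found with Pdgfra less often. Of 195 thinned flox cells 39 held both Acta2 and Tagln, against 20.9 given by the product of the 2 shares. In the library labelled PSCs-MCT1-/- 12 of 264 did, against 4.14. Over the 6 pairs among Acta2, Tagln, Myl9 and Des the observed number was 1.68 to 3.05 times that product in flox. It was 1.61 to 5.50 times the product in the other library, in the 5 pairs whose product reached 1 cell. Acta2 and Pdgfra were found together in 5 flox cells against 12.4, and in 4 cells of the other library against 6.06. For this pair the ratio of observed to product was 0.404 (0.132 to 0.926) in flox and 0.660 (0.181 to 1.67) in the other library. These intervals cover the number of cells with both genes, with the product held fixed. Cells of 1 library are not replicates, so the intervals are a description and no test. In the other library the interval included a ratio of 1, and no order is read there. Tagln and Pdgfra met in 3 cells against 10.6, and in 3 against 4.35. Des and Pdgfra did not follow, with 6 cells against 5.74 and 4 against 3.26. Pdgfra and Pdpn were found together in 11 cells against 8.97 and in 20 against 15.5. Cells with at least 3 of the 4 contractile genes made up 13.8% (9.33 to 19.5) of thinned flox collagen cells and 1.89% (0.618 to 4.36) of the other library's. Cells with none of the 4 made up 48.2% and 73.5%. In unthinned flox cells Acta2 and Pdgfra were found together 1.25 times as often as the product, so the direction depended on depth and is read at equal depth only. For Acta2 summed UMIs gave the order of the thinned cells, with 771.5 CPM in Pdgfra-positive flox collagen cells and 2522 CPM in Pdgfra-negative ones. In the other library the values were 205 and 449 CPM. Des was lower in Pdgfra-positive cells too, at 129 against 564 CPM in flox and 59.8 against 144 CPM in the other library. Its thinned pair with Pdgfra lay near the product, so for Des the 2 measures differed. Positive cells were the deeper in both libraries (medians of 12917 against 1330 UMIs and 9007 against 2503).

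**Figure D3:**
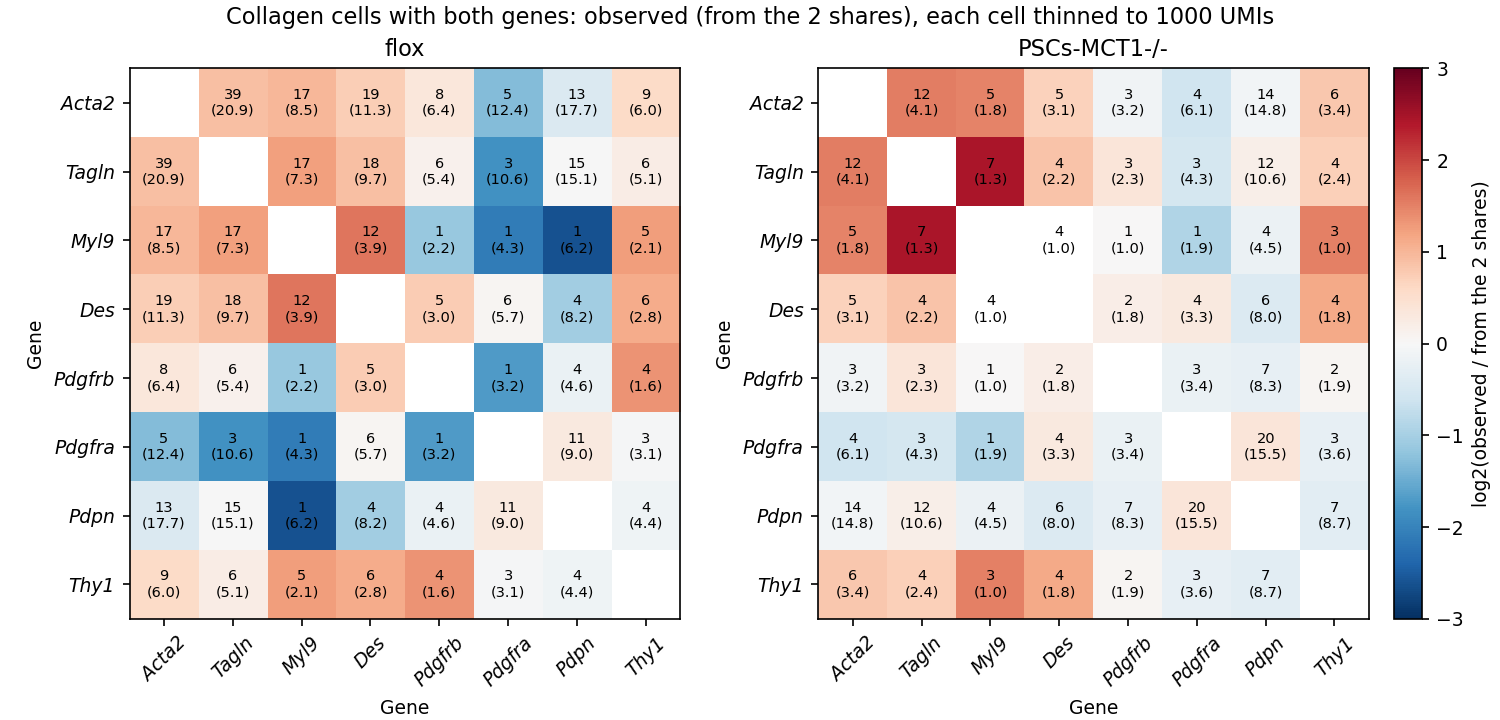
Pairs of genes in collagen cells thinned to 1000 UMIs, with the number of cells holding both and, in brackets, the number that the product of the 2 shares gives. Colour is the log2 ratio of these numbers, and pairs whose product is below 1 cell are left white. The block of Acta2, Tagln, Myl9 and Des is red in both libraries apart from the white pair of Myl9 with Des in the library labelled PSCs-MCT1-/- (39 cells against 20.9 for Acta2 with Tagln in flox), and Pdgfra with Acta2 or Tagln is blue, more so in flox, while Pdgfra with Des is not.

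Collagen cells were further split by genes that are no members. Those with 2 or more of the 8 mural markers numbered 54 in flox and 48 in the library labelled PSCs-MCT1-/-. These carried 65.4% of the Acta2 UMIs of flox collagen cells and 44.9% of those of the other library. They were deep, with medians of 15117 and 10536 UMIs. They also held 45.4% and 21.2% of the Pdgfra UMIs and 35.4% and 23.8% of the Pdpn UMIs. Pdgfra was detected in 37 and 27 of them, Pdpn in 43 and 41, and Rgs5 in 8 and 3. The set is therefore named by its marker genes and is not called mural cells. Of the rest, cells with 2 or more genes of inflammatory-type fibroblasts, such as Clec3b, Dpt, C3 and Cxcl12, numbered 88 (33.6%) and 180 (56.4%), and cells with 2 or more matrix genes such as Postn and Tnc 20 and 13. The remaining 100 and 78 were shallow, with medians of 879 and 892 UMIs. Acta2 was lower in the library labelled PSCs-MCT1-/- in the mural-marker set (1954 against 544 CPM, ratio 0.279) and in the inflammatory-type set (724 against 175 CPM, ratio 0.241). In the small matrix set it was 1107 against 1201 CPM, a ratio of 1.08 (0.808 to 1.45), and Tagln had a ratio of 1.41 (1.06 to 1.87). Des had a ratio of 0.202 in the mural-marker set and 0.837 (0.628 to 1.12) in the inflammatory-type set. Pdpn had a ratio of 1.45 (1.25 to 1.68) in the mural-marker set and 1.04 (0.939 to 1.15) in the inflammatory-type set. These sets were defined by detected genes, so a deeper cell enters one more easily.

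The 10 genes differed in how far collagen cells stood above the other kept barcodes. Against all other kept barcodes, 8 of the 10 were at least 4-fold higher in flox collagen cells (6.37% of 13806 genes with 50 or more UMIs), and 6 of the 10 in those of the library labelled PSCs-MCT1-/- (7.2% of 14219). Des was 143-fold and 47.2-fold higher, Tagln 82.3-fold and 30.3-fold, Pdgfra 23.2-fold and 17.3-fold, and Pdpn 10.3-fold and 25.7-fold. Fap was 32.9-fold and 7.33-fold higher, and Thy1 7.85-fold and 10.2-fold. Rgs5 was 79.5-fold higher in flox and 2.74-fold in the library labelled PSCs-MCT1-/-, and Myl9 8.50-fold and 2.56-fold, so these 2 passed 4-fold in flox only. Acta2 was 2.14-fold higher in flox and 0.503 times the level of other barcodes in the library labelled PSCs-MCT1-/-. Cells with 2 or more of the keratins Krt7, Krt8, Krt18 and Krt19, as tumor cells of this kind have, held 51.75% and 66.83% of all UMIs in kept barcodes. Their Acta2 UMIs numbered 27268 and 38943, which is 72.1% and 83.4% of all Acta2 UMIs in kept barcodes. Their Acta2 level was 861.7 and 715 CPM, a ratio of 0.830 (0.817 to 0.843), and 88.1% and 82.9% of them had an Acta2 UMI. Empty barcodes had 850 and 601 CPM of Acta2, and the 292 CPM in collagen cells of the library labelled PSCs-MCT1-/- lay below both. Subtracting free RNA scaled by acinar genes left 472 of the 644 Acta2 UMIs there and 1837 of the 2433 in flox collagen cells. The limits of that estimate are given with the alternatives below. Tagln, in contrast, was 10.7 and 6.21 CPM in keratin cells, and Des 0.569 and 0.367 CPM. Acta1 and Actc1, the other alpha-actin genes, had at most 8 UMIs in collagen, keratin or myeloid cells of either library. Genes of the Y chromosome (Ddx3y, Uty, Eif2s3y and Kdm5d) summed to 243 and 217 CPM in collagen cells and to 5.97 and 3.97 CPM in keratin cells, which sets the 2 classes apart by genes that no rule used. The barcodes with 2 or more mural markers and little collagen (27 in flox, 74 in the other library) had 6.37 and 38.6 CPM of these genes, near keratin cells in flox, and were therefore not called mural. Barcodes of any class with 5 or more Rgs5 UMIs had 283 and 182 CPM.

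Most Pdgfrb UMIs likewise lay in keratin cells, with 70.8% and 75.8% of them at 39.8 and 31.3 CPM, and it was 2.99-fold and 2.75-fold higher in collagen cells than elsewhere. Keratin cells held 51.75% and 66.83% of all UMIs in kept barcodes, against which these shares and those of Myl9 and Pdgfra are to be read. Of the Myl9 UMIs 56.3% and 75.8% lay there, at 37.5 and 29.3 CPM. Of the Pdgfra UMIs 39.4% and 49.0% did, at 11.0 and 9.68 CPM, against 42.7% and 32.5% in collagen cells. Empty barcodes had 35.3 and 28.4 CPM of Pdgfrb, 54.5 and 33.4 CPM of Myl9 and 9.54 and 9.69 CPM of Pdgfra. The levels in keratin cells were thus close to or below those of empty barcodes, and the part of free RNA in them was not tested. Myeloid cells held 51.9% of all Pdpn UMIs in flox, at 124 CPM, and 32.6% in the other library, at 92.0 CPM. Fap had 21 UMIs in 2636 flox myeloid cells and 121 in 2123 of the library labelled PSCs-MCT1-/-, more than the 31 in its collagen cells. Of those 121 UMIs 82 lay in 12 cells with 3 or more each, chosen after their values were seen. All 12 had C1qa, a complement gene of macrophages, and none had a Col1a1 or Pdgfra UMI. Myeloid cells were chosen by myeloid markers, and Ptprc-positive barcodes past the collagen threshold formed a class of their own. C1qa and the lack of Col1a1 thus follow in part from the class rule. Which cell type these 12 cells are was not tested. Thy1 was highest in T/NK cells, at 330 and 313 CPM.

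**Figure D4:**
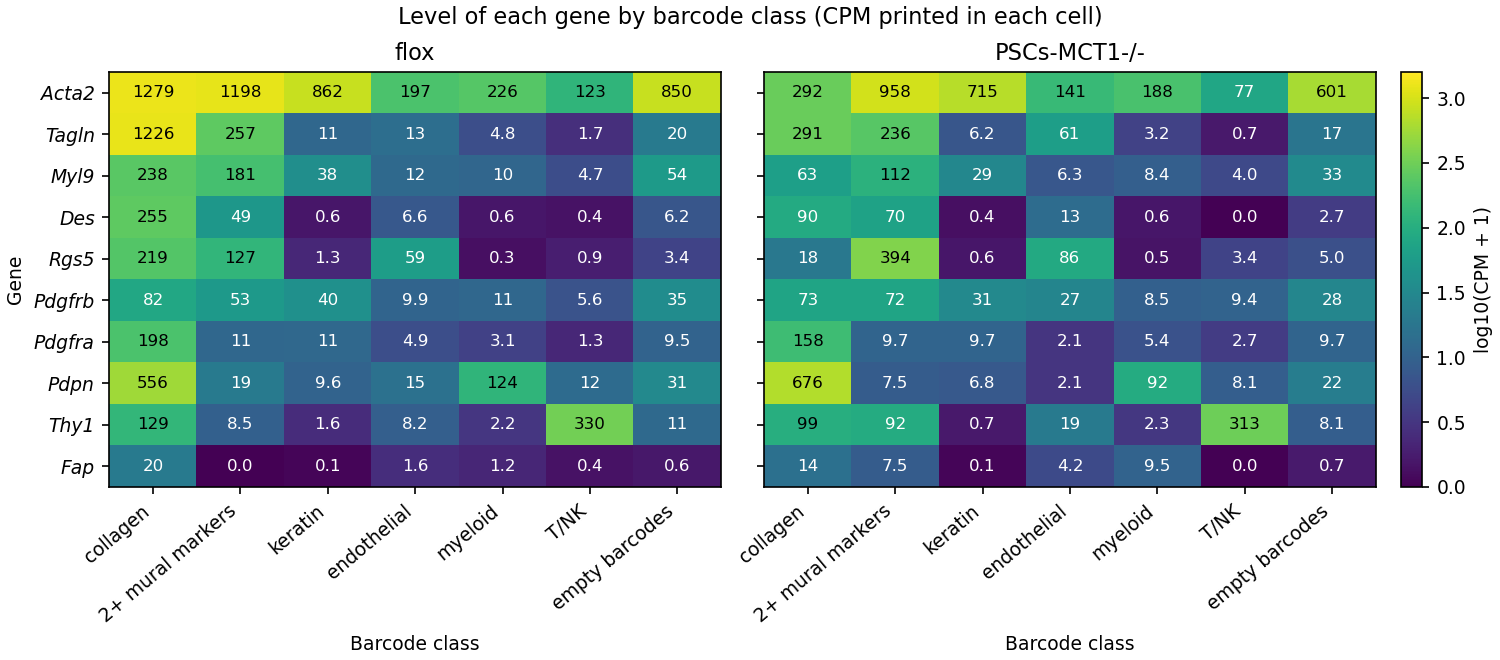
CPM of each gene (rows) in 6 barcode classes and in empty barcodes (columns) for the flox library (left) and the library labelled PSCs-MCT1-/- (right), with the CPM printed in each cell and colour on a log10 scale. Acta2 is high in keratin cells and empty barcodes of both libraries, Tagln and Des peak in collagen cells, Rgs5 peaks in collagen cells in flox and in barcodes with 2 or more mural markers in the other library, and Thy1 peaks in T/NK cells.

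Other genes of the same programmes, in lists of known function, were compared in collagen cells, where 13.2% of all genes were at least 1.5-fold lower and 8.47% at least 1.5-fold higher. Of 12 contractile genes all had 50 or more UMIs, and 11 were at least 1.5-fold lower in the library labelled PSCs-MCT1-/- and none higher, with a median ratio of 0.441 against 0.944 over all genes. Lowest were Actg2, a smooth muscle actin, with 803 and 23 UMIs (ratio 0.0247), and Myh11, smooth muscle myosin, with 360 and 46 (0.110). Highest were Ppp1r14a at 0.568 and Sparcl1 at 1.14. The flox cell with most Acta2 held 669 of the 803 Actg2 UMIs, 257 of the 360 Myh11 UMIs and 210 of the 262 Cnn1 UMIs. Without this cell 9 of the 12 genes were lower, the median was 0.557, and the ratios were 0.147 for Actg2, 0.381 for Myh11 and 0.854 for Cnn1, against 0.171 for Cnn1 with it. Without the cells with 5 or more UMIs of Actg2 and Myh11, which the values of these genes chose, 6 were lower and 1, Sparcl1, was higher, with a median of 0.680. Of 8 mural genes with enough UMIs 6 were lower and none higher, with a median of 0.587. Higd1b (0.277) and Cspg4 (0.307) were lowest, and the potassium channel genes Abcc9 (0.810) and Kcnj8 (1.04) were highest. Higd1b was detected in 7 and 3 collagen cells. With the barcodes that held 2 or more mural markers joined, which most of these genes helped to choose, 4 of the 8 were lower and 1 higher, with a median of 0.780. Higd1b then had a ratio of 1.58 and Notch3 1.16, against 0.575 in collagen cells alone, so the mural list is read for collagen cells only. Of 11 myofibroblast matrix genes 6 were lower and none higher, with a median of 0.644. Tnc, tenascin C, was 544 and 143 CPM (ratio 0.263) and Col8a1 had a ratio of 0.388, and Thbs2 (0.806) and Lox (1.24) were highest. Inflammatory fibroblast genes went the other way, with 5 of 12 at least 1.5-fold higher, 2 lower and a median of 1.37. Cxcl12, a chemokine of fibroblasts, was 117 and 331 CPM (ratio 2.83), and Cxcl1 639 and 1311 CPM (2.05), with Col14a1 (0.482) and Lif (0.575) lowest. Of 11 PDGF and TGF-beta ligand, receptor and transcription genes 2 were lower and none higher (median 0.782), a share near that of all genes. Pdgfa (0.5001) and Mrtfa (0.512), a cofactor of serum response factor, were lowest, and Tgfb1 (0.926) and Tgfbr3 (1.30) highest. Of 4 retinoid and quiescence genes Plin2, a lipid droplet gene, was lower (0.531) and Adipor1 was next (0.837), with none at least 1.5-fold higher. In both libraries Plin2, Adipor1, Lif, Pdgfa, Pdgfc, Tgfb1 and the contractile gene Cnn2 lay below their own levels in empty barcodes. For Plin2 this was 54.65 and 29.02 CPM against 122.5 and 74.26 CPM, and for Cnn2 132.9 and 73.02 CPM against 151.9 and 121.9 CPM. In the library labelled PSCs-MCT1-/- only, so did Tnc (142.9 against 144.9 CPM), Fn1 (806.8 against 834.1 CPM) and Notch3 (15.42 against 25.78 CPM). The part of free RNA in these genes was not tested.

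Likeness between genes was measured as Pearson's r across thinned collagen cells, as a description over 195 and 264 cells that share a library and its free RNA. Acta2 was most like the member Tagln (r of 0.584 in flox and 0.363 in the other library). Among 2305 other candidate genes it was most like Tpm2 (0.460 and 0.306), a tropomyosin of muscle filaments, followed by Tmsb4x, S100a6, Atp5e and Actb at 0.168 to 0.286. Pdgfra was most like Cebpd, Impad1, Slit3, Serpina3n and Igfbp4, at 0.148 to 0.294, and its r with Acta2 was -0.22 and -0.05. For Rgs5, detected in 6 and 3 thinned cells, the leading genes were Itga1, Gm13889, Pik3r1, Adamts4 and Prkg1, which rest on those few cells.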

How the data were processed

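Cells were captured with a SeekOne MM kit per the labels, whereas the methods name 10x or SeekOne DD. Reads were trimmed by Fastp and counted by SeekOneTools, both run by the authors. They deposited raw UMI counts per gene and barcode, not normalized and before any barcode filter, for 1437105 barcodes (177334432 UMIs) and 1433633 barcodes (151118092 UMIs). The build named is human GRCh38, although the genes are mouse Ensembl genes, so positions are from GENCODE vM21 (GRCm38) and promoters from RefSeq (GRCm38.p6). Submitters' processing notes name Seurat 4.0.0.

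UMIs were summed per class and library and given as CPM with exact Poisson (Garwood) intervals, ratios of CPM with conditional exact intervals and shares with Clopper-Pearson intervals, at 95%. For pairs of genes the ratio of observed to product has the Clopper-Pearson interval of the observed cells, with the product held fixed. PCR duplicates were removed by UMI in the deposited counts, and intervals cover counting error only. No test was made, as each group is 1 library. A count under 3 UMIs was set to 3 when genes were ranked or ratios recomputed under other settings. Doublets were kept, and an alternative left out at most 8% of barcodes, those with the highest simulated-doublet score. Classes were set per barcode by fixed markers, T/NK and myeloid cells from Ptprc-positive barcodes and keratin cells from the rest. Kept barcodes shared by the libraries numbered 59. The rule named the 10 genes, the 2 lowest and 2 highest of each list and the 5 genes most like Acta2, Pdgfra and Rgs5 among those in at least 5% of collagen cells. The 2 highest genes of the retinoid list are not reported here. The 10 genes and the lists were chosen with earlier results of these data known. The interval method was tested on simulated independent Poisson counts. UMIs gathered in a few cells, as in these data, were not simulated, so that spread is not covered. Versions were matplotlib 3.10.9, pandas 2.3.3, Python 3.11.15, scikit-learn 1.9.0, numpy 2.4.6 and scipy 1.17.1.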

Additional observations from a re-analysis of the deposited data

Results flagged for a closer look

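Barcodes with more than 5000 detected genes, which the comparisons leave out, met the collagen rule in 9 cases in flox and 4 in the library labelled PSCs-MCT1-/-. Their Acta2 level was 728.1 and 552.5 CPM, listed here because these barcodes lie outside the main measurement. Empty barcodes had 850 and 601 CPM of Acta2, and the part of free RNA in these barcodes was not estimated. The collagen-rule barcodes had Tagln at 669.5 and 318.4 CPM and no Rgs5 UMI in either library. With no upper gene limit the Acta2 ratio in collagen cells was 0.2499.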

How the results depend on the processing

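The 10 ratios in collagen cells were recomputed under 16 alternatives, and of 160 values 48 moved beyond the counting interval. Acta2, Tagln, Myl9, Fap, Pdgfra, Des and Rgs5 had a ratio below 1 in 16 of 16, Pdgfrb in 12, Thy1 in 14 and Pdpn in 2. In the smallest setting, without Cd74, Lyz2 or C1q UMIs, counts under 3 were set to 3. There the direction of a scarce gene such as Fap can follow the library totals alone. Acta2 ranged from 0.161 with free RNA subtracted to 0.918 among cells without Cd74, Lyz2 or C1q UMIs. Collagen cells numbered 109 and 105 at 1% collagen, 9 and 47 without Cd74, Lyz2 or C1q UMIs, and 121 and 173 without keratin UMIs. With free RNA subtracted, which takes 36.9% and 13.0% of the UMIs of collagen cells by acinar genes, 8 of the 10 genes were lower by 1.5-fold, against 22.4% of all genes lower and 18.8% higher under that setting. The unequal shares alone multiply every ratio by 0.7255, and with the totals kept the ratios were 0.222 for Acta2, 0.707 for Fap, 0.807 for Pdgfra, 0.786 for Thy1 and 1.24 for Pdpn. The other marker lists do not bear out the flox share, as collagen cells had 11.8% and 12.5% of the myeloid level of empty barcodes and 13.7% and 16.9% of the epithelial level. Scaled by the myeloid genes, an alternative chosen after seeing the data, subtraction left 5 of the 10 genes lower, with Acta2 at 0.186 and Tagln at 0.238. Thinned to 500 or 2000 UMIs, the median share of cells over the 10 genes was 5.34% or 20.2% in flox and 4.08% or 15.6% in the other library. In unthinned flox cells Acta2 with Tagln was 1.32 times the product of shares, and Acta2 with Pdgfra 1.25 times, above 1 where thinned cells gave 0.404. Without likely doublets collagen cells held 7.01% and 1.58% of Acta2 UMIs and keratin cells 73.0% and 84.1%. Over genes with 10 or more UMIs 18.3% of 11894 were 1.5-fold lower, and over those with 200 or more 9.87% of 2959. Leaving out the flox cell with most Acta2, the cells with most of a gene's UMIs or with smooth muscle genes, and joining barcodes with mural markers, were chosen after seeing the data. Without the cells with 5 or more UMIs of Actg2 and Myh11, 6 contractile list genes were lower and 1 higher, and 1 mural list gene was higher. With the barcodes of 2 or more mural markers joined, 1 mural list gene was higher, 3 inflammatory genes were higher and 1 PDGF or TGF-beta gene was lower. No paired analysis was possible because each group is 1 library. Depth limits Fap, with 38 and 31 UMIs, and Rgs5, with 9 and 4 positive cells.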

Other observations

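Wt1, a transcription factor gene of the mesothelium, was detected in 100 flox collagen cells and 163 of the library labelled PSCs-MCT1-/-. These held 80.1% and 80.6% of the Pdpn UMIs of collagen cells, at 660 and 759 CPM, against 341 and 465 CPM in cells without Wt1. They held no Rgs5 UMI in flox and 1 in the other library. Acta2 was 0.352 times the flox level in Wt1-positive collagen cells and 0.140 times in Wt1-negative ones, where flox had 2267 CPM and the other library 317 CPM. Des was 0.654 and 0.137 times the flox level. Wt1-positive cells were deeper, with medians of 13228.5 and 9135 UMIs against 1375.5 and 2085.5. Upk3b, a gene of mature mesothelium, was detected in 16 and 15 collagen cells.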
